A study of Homo sapiens with 6 samples.

Results

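The aryl hydrocarbon receptor (AHR) axis was examined in THP1 cells as 6 genes. They were AHR itself, its partner ARNT, the repressors AHRR and TIPARP, and the target genes CYP1B1 and CYP1A1, picked by symbol from the 26485 genes of the count table. AHR, ARNT, AHRR, TIPARP and CYP1B1 had enough reads to be fitted together with 12854 genes, and CYP1A1 did not. The choice was made with the response of these genes to Withaferin A (WFA) known, in particular the fall of CYP1B1 and its scatter among the control libraries, so their own changes are given below as a description with standard errors and without a test. THP1 is an established human acute monocytic leukemia line, and all 6 libraries came from it. The 3 DMSO libraries were from cells given the solvent for 6 h and the 3 WFA libraries from cells given WFA, a steroidal lactone, for the same 6 h. The dose is 1 mM in the sample labels and 1 μM in the study's methods. According to the methods, the 3 libraries of a group came from independent experiments. Same-numbered libraries of the 2 groups share a date in their descriptions, and the main fit did not use this pairing. Levels are given as CPM, that is, reads of a gene per 1000000 reads of its library after TMM scaling, with the SD over the 3 libraries of a group.

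AHR is a transcription factor of the basic helix-loop-helix PAS family that waits in the cytosol in a complex with HSP90 and p23. Dioxin-like pollutants, dietary indoles and tryptophan metabolites such as kynurenine bind it, after which it enters the nucleus, pairs with ARNT and binds the xenobiotic response element, whose core reads GCGTG. The pair induces P450 enzymes of the CYP1 family and, as feedback, its own inhibitors AHRR and TIPARP. In monocytes and macrophages CYP1B1 is the main CYP1 enzyme, and it oxidizes polycyclic hydrocarbons, estradiol and fatty acids.

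Of the 2 genes of the axis that were lower in every WFA library, CYP1B1 was 9.14-fold and AHRR 3.29-fold lower in WFA than in DMSO. ARNT was 1.25-fold higher, and all its WFA libraries lay above all its DMSO libraries. For AHR and TIPARP the libraries of the 2 groups overlapped. Among all 12854 tested genes, the groups did not overlap in 58.1%, with 28.5% lower and 29.6% higher in all WFA libraries. CYP1A1 held 3 reads or fewer in each library of both groups.

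**Figure D1:**
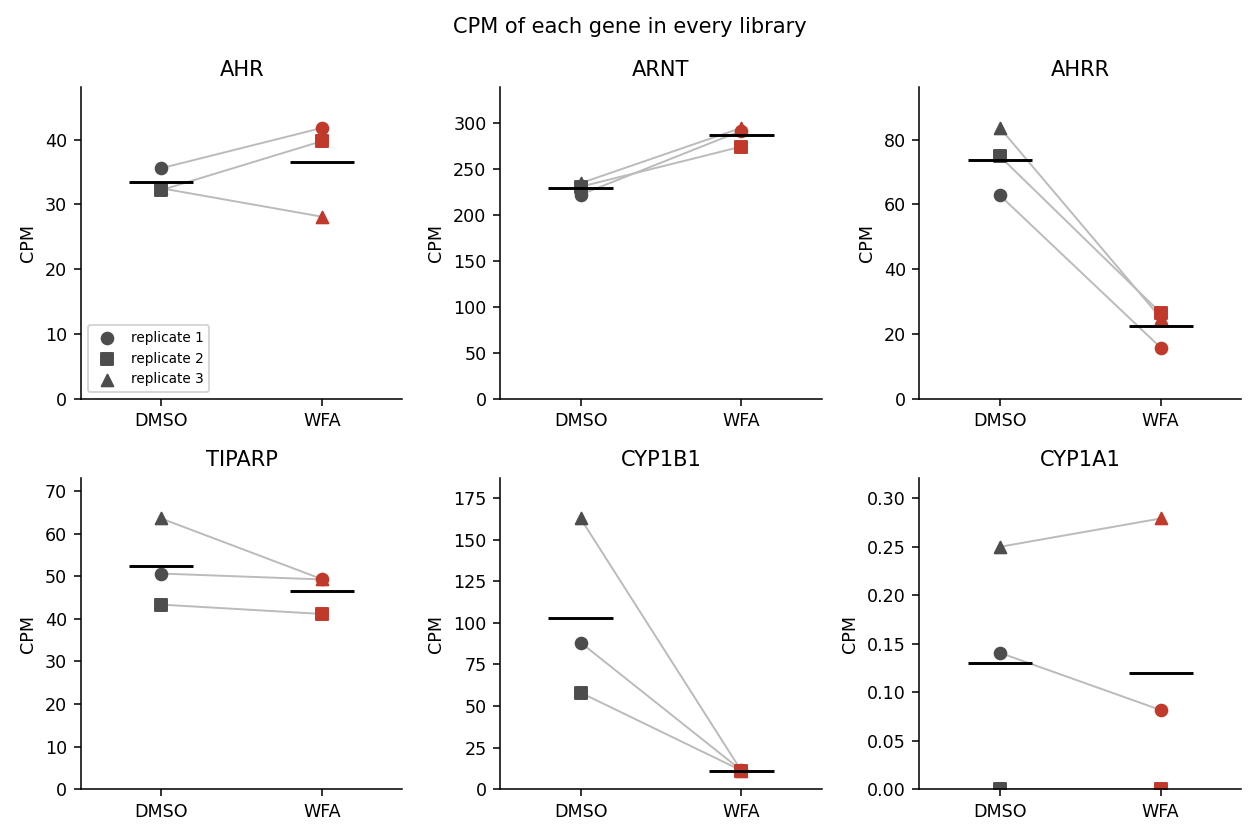
CPM (vertical axis, linear, from 0) of the 6 genes in the DMSO and WFA libraries. Each point is 1 library, with the marker giving its replicate number, grey lines join libraries of the same number, and black bars are group means. CYP1B1 spreads from 58.0 to 163 CPM in DMSO and from 11.1 to 11.4 CPM in WFA, while the points of AHR and TIPARP overlap between the groups and CYP1A1 reaches at most 0.279 CPM.

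AHR, the ligand-binding receptor, lies on chromosome 7 (GRCh38, chr7:17298652-17346147, plus strand). It was measured at 35.6, 32.2 and 32.5 CPM in DMSO replicates 1, 2 and 3. In WFA replicates 1, 2 and 3 it was at 41.8, 39.8 and 28.1 CPM. WFA replicates 1 and 2 were therefore above all DMSO libraries and WFA replicate 3 was below them. The group means were 33.4 ± 1.87 and 36.6 ± 7.40 CPM (SD, n = 3), with a fitted log2 fold change of 0.13 (SE 0.13). Leaving out WFA replicate 1 gave 0.03, and leaving out WFA replicate 3 gave 0.29.

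ARNT, which is needed by AHR for DNA binding and serves the hypoxia-inducible factors in the same way, lies on chromosome 1 (chr1:150809713-150876599, minus strand). It was at 222, 230 and 234 CPM in the DMSO libraries. The WFA libraries held 291, 274 and 294 CPM. No library of one group reached the values of the other. The means were 229 ± 6.39 and 286 ± 10.9 CPM (SD, n = 3), and the fitted log2 fold change was 0.32 (SE 0.08). The ratios of same-numbered libraries were 0.39, 0.25 and 0.33 on the log2 scale. Scaling by total counts in place of TMM lowered the log2 fold change to 0.24, with the direction kept.

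AHRR, the AHR repressor, resembles AHR but binds no ligand, and it competes for ARNT and for the response element. It lies on chromosome 5 (chr5:321714-438285, plus strand). The DMSO libraries held 62.8, 74.9 and 83.7 CPM, from 893, 948 and 1004 reads. The WFA libraries held 15.8, 26.5 and 24.9 CPM, from 193, 329 and 268 reads. The highest WFA library thus stayed below the lowest DMSO library. The mean went from 73.8 ± 10.5 to 22.4 ± 5.80 CPM (SD, n = 3), the log2 fold change was -1.72 (SE 0.16), and 149 of the 12854 tested genes had a lower value. By pair of same-numbered libraries the change was -1.99, -1.50 and -1.75, and the fitted value stayed between -1.86 and -1.52 when single libraries were left out. Reads of AHRR may include transcripts that run through from PDCD6, the gene just upstream, since the annotation holds a joint PDCD6-AHRR locus that was not a row of the count table. PDCD6 itself was at 83.0 ± 5.94 CPM in DMSO and 79.9 ± 7.77 CPM in WFA, a log2 fold change of -0.06 (SE 0.09; adjusted p = 0.65 with edgeR's quasi-likelihood test).

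The window before the annotated AHRR start is shown because AHRR is a feedback target of AHR and was lower in all WFA libraries. It comes from RefSeq (GRCh38.p14), whose promoter table matched 5 of the 6 genes, all but CYP1B1. It covers the 250 bases chr5:321464-321713 on the plus strand, 5′ to 3′, with the response element core in capitals.
AHRR window: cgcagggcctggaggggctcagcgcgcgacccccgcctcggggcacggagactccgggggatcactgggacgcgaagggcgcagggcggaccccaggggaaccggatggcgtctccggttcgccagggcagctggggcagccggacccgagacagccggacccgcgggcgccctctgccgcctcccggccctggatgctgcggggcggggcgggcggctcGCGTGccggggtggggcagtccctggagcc
The core GCGTG was searched on both strands and stands 30 bases before the start. Here it is part of the longer form TNGCGTG. The core occurred in 32.2% of 35116 promoter windows of this length and the longer form in 4.52%, and the core overlaps that of the hypoxia response element. The windows of the other genes gave a mixed picture. The second AHRR start, at the window chr5:322360-322609, had the core 247 and 42 bases upstream, the first TIPARP start had it 208 and 142 bases upstream, and CYP1A1 had it 57 bases upstream. The other TIPARP windows, chr3:156674676-156674925 and chr3:156676414-156676663, had none, and neither did AHR and ARNT in their 250 bases. The stretches below give 10 bases on each side of the core, turned so that the core reads GCGTG. AHRR and TIPARP each have a window with this core. The bases around it differ between all sites shown, also between the TIPARP sites, and a link to the response was not tested. The AHRR site 247 bases upstream is left out, since its flank runs past the window. The second AHRR site stands at chr5:322558-322582, the TIPARP sites at chr3:156674372-156674396 and chr3:156674438-156674462, both on the minus strand, and the CYP1A1 site at chr15:74725571-74725595, on the minus strand, which is the coding strand of that gene.
AHRR, 42 bases upstream: agaagggtggGCGTGtgcgcgcgtt
TIPARP, 208 bases upstream: ccgcgaggggGCGTGtcctttctcg
TIPARP, 142 bases upstream: ccctgcgcgcGCGTGcgcgttcgtt
CYP1A1, 57 bases upstream: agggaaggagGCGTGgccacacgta
A match of these letters is a description of the sequence and binding was not measured.

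TIPARP, also called PARP7, is a mono-ADP-ribosyltransferase that modifies AHR and limits its activity. It lies on chromosome 3 (chr3:156674590-156706770, plus strand). It was at 50.6, 43.4 and 63.6 CPM in DMSO and at 49.3, 41.2 and 49.3 CPM in WFA. DMSO replicate 3 stood above the other libraries, and the remaining values of the groups overlapped. The means were 52.5 ± 10.2 and 46.6 ± 4.69 CPM (SD, n = 3), with a log2 fold change of -0.17 (SE 0.13). It was -0.02 without DMSO replicate 3 and -0.31 without DMSO replicate 2. The antisense gene TIPARP-AS1, which cannot be separated by strand here, had at most 6 reads in a library. Side by side, AHRR was 3.29-fold lower with WFA and the change of TIPARP lay within the scatter of its libraries, taken without pairing. By pair of same-numbered libraries the change of TIPARP was -0.04, -0.08 and -0.37 on the log2 scale, with an SD of 0.18.

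**Figure D2:**
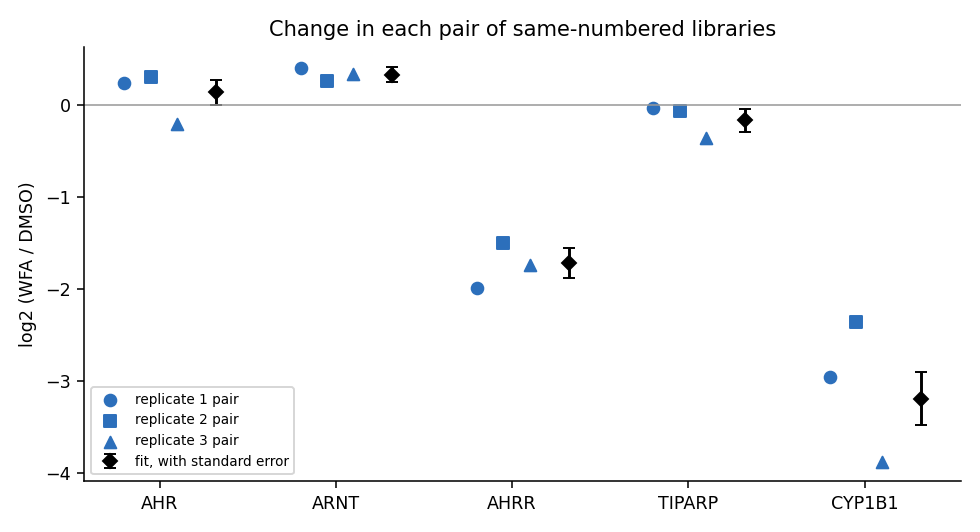
Log2 ratio of WFA to DMSO (vertical axis) for 5 genes in each pair of same-numbered libraries (blue markers), beside the edgeR estimate with a standard error (black diamonds). The standard error was computed from the estimate and the F statistic of its test. All 3 ratios lie above 0 for ARNT and below 0 for AHRR, TIPARP and CYP1B1, and those of AHR fall on both sides of 0. TIPARP stays between -0.37 and -0.04.

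CYP1B1 lies on chromosome 2 (chr2:38067509-38076151, minus strand). The DMSO libraries held 1253, 735 and 1952 reads of it, or 88.1, 58.0 and 163 CPM. The WFA libraries held 139, 140 and 119 reads, or 11.4, 11.3 and 11.1 CPM. The highest WFA value was below the lowest DMSO value. The mean went from 103 ± 53.8 to 11.2 ± 0.145 CPM (SD, n = 3), a log2 fold change of -3.19 (SE 0.28). Of the 12854 tested genes, 5 had a lower value. In pairs of replicates 1, 2 and 3 the change was -2.96, -2.36 and -3.88, in the order of the DMSO levels, since the WFA levels were nearly equal. The SD of these ratios was 0.76. The SE of the fitted change depended on the method, at 0.44 with DESeq2 and 0.11 with the replicate number as a block. Without DMSO replicate 3 the log2 fold change was -2.70, and without DMSO replicate 2 it was -3.49. In bulk RNA a smaller number of cells with the transcript and less transcript per cell cannot be told apart. The gene CYP1B1-AS1, named for the opposite strand, does not overlap CYP1B1 at the positions used here (chr2:38131105-38181855). It held between 1 and 7 reads in each library.

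The scatter of CYP1B1 among the DMSO libraries was part of the reason for its choice and is described here without a test. The exact 95% Poisson intervals of the counts, which leave out the variation between experiments, were 83.3 to 93.2 CPM for replicate 1, 53.9 to 62.4 CPM for replicate 2 and 156 to 170 CPM for replicate 3. In WFA each of the 3 values lay inside the intervals of the others. The highest DMSO library was 2.80 times the lowest, against 1.03 times in WFA, and the coefficient of variation was 52.3% against 1.29%. On the log2 CPM scale the SD of CYP1B1 was 0.75 over the DMSO libraries, where the median gene had 0.13, and 89 of 12854 tested genes had a larger SD. Among the 6427 tested genes at or above the median level, GPNMB alone had a larger SD. Over the WFA libraries the SD of CYP1B1 was 0.018, where the median gene had 0.15, and it ranked 12704 from the top. The 95% Poisson interval of WFA replicate 1 alone ran from 9.55 to 13.4 CPM, far wider than the distance between the WFA libraries. Values this close are below what counting can resolve, so the SD and rank in WFA do not show how uniform the level was.

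The scatter of the other tested genes of the axis was as follows. ARNT had SDs of 0.04 in DMSO and 0.06 in WFA on the log2 CPM scale, below the median gene in both groups. AHR had 0.08 in DMSO and 0.31 in WFA, and AHRR 0.21 and 0.41, both with the wider scatter in WFA. TIPARP had 0.28 in DMSO and 0.15 in WFA, with the wider scatter in DMSO as for CYP1B1. DMSO replicate 3 was the highest of its group for CYP1B1, TIPARP, AHRR and ARNT, whereas AHR was highest in DMSO replicate 1. DMSO replicate 2 was the lowest for CYP1B1, TIPARP and AHR.

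**Figure D3:**
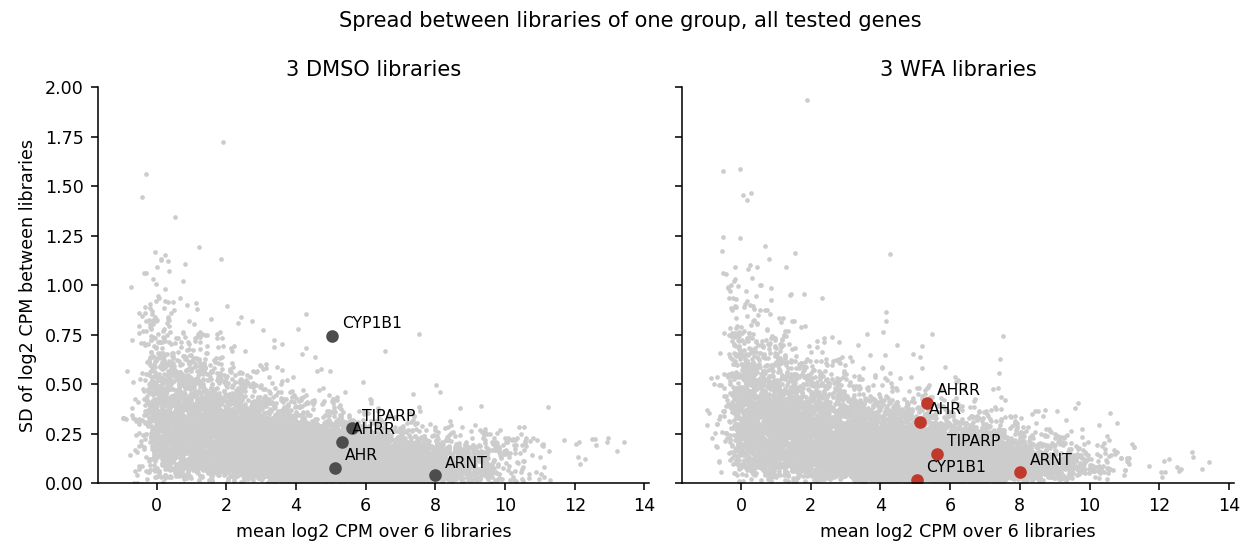
SD of log2 CPM between the 3 libraries of a group (vertical axis) against mean log2 CPM over the 6 libraries (horizontal axis), for the DMSO libraries (left) and the WFA libraries (right). Grey points are the 12854 tested genes and the 5 large points are the tested genes of the axis. CYP1B1 stands at 0.75 in DMSO and at 0.018 in WFA.

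CYP1A1, the classical AHR target of liver and epithelium, lies on chromosome 15 (chr15:74719542-74725528, minus strand). It had 2, 0 and 3 reads in the DMSO libraries and 1, 0 and 3 reads in the WFA libraries. A library with a count of 0 allows up to 3 reads, so the gene was at this limit in all 6 libraries and no fold change is given. The 2 CYP1 target genes of the axis therefore differed in level by a wide margin in the DMSO cells, with 735 reads or more of CYP1B1 in each library.

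Levels of the 6 genes were compared per kb of the longest coding transcript (GENCODE 29). In DMSO the order was ARNT at 46.8 ± 1.31, CYP1B1 at 19.6 ± 10.3, AHRR at 13.0 ± 1.85, TIPARP at 12.6 ± 2.45, AHR at 4.81 ± 0.269 and CYP1A1 at 0.048 CPM per kb. CYP1B1, AHRR and TIPARP did not differ from each other beyond their SDs, and in DMSO replicate 2 CYP1B1 was below AHRR. In WFA the order was ARNT at 58.6 ± 2.24, TIPARP at 11.1 ± 1.12, AHR at 5.26 ± 1.06, AHRR at 3.96 ± 1.02 and CYP1B1 at 2.14 ± 0.028 CPM per kb, with CYP1A1 last again. AHR and AHRR overlapped there.

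The genes with the profile most like that of CYP1B1 over the 6 libraries were found by the root mean square difference of log2 CPM after each gene was centred on its mean. They were NAV3, a neuron navigator gene, at 0.31, THBD, the thrombin receptor thrombomodulin, at 0.34, CCL2, a chemokine for monocytes, at 0.40, FAM135B at 0.40, NPTX1, a neuronal pentraxin, at 0.43, and HK2, a hexokinase of glycolysis, at 0.44. In each of these 6 genes DMSO replicate 3 was the highest library, and CCL2 and HK2 were lowest among DMSO libraries in replicate 2, as CYP1B1 was. The genes were chosen by likeness over these same libraries, so such shared features largely follow from the choice. THBD was at 172, 179 and 232 CPM in DMSO and at 26.6, 27.1 and 22.9 CPM in WFA. HK2 was at 61.4, 50.5 and 81.7 CPM in DMSO. The genes closest to AHR were PCNP at 0.045, PRKAR2B, a regulatory subunit of protein kinase A, at 0.051 and the lysosomal gene TMEM106B at 0.057. Those closest to TIPARP were GHRLOS at 0.023, OPN3 at 0.028 and SLC35E3 at 0.045. Of the tested genes, 1577 lay within 0.2 of AHR, 1794 within 0.2 of TIPARP and 0 within 0.2 of CYP1B1. The genes named for AHR and TIPARP are thus the nearest of very many, and CYP1B1 had no match that close. GHRLOS is antisense to the ghrelin gene, and its reads cannot be separated by strand.

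**Figure D4:**
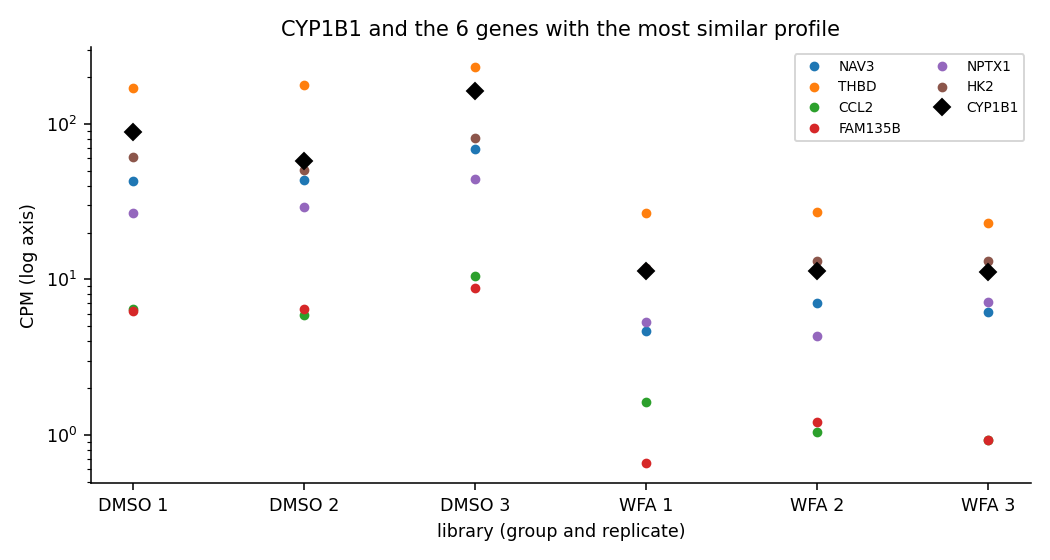
CPM (vertical axis, log scale) of CYP1B1 (black diamonds) and of the 6 genes closest to it (coloured points) in each of the 6 libraries (horizontal axis). All 7 genes are highest in DMSO replicate 3 and lower in every WFA library, which largely follows from their choice by likeness over these libraries. The DMSO points of CYP1B1 lie farther apart than those of the others.

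The other genes of the pathway were read from 8 lists with 96 genes in all, each gene counted once. Of the 76 that were tested, 26 rose and 19 fell with WFA at an adjusted p under 0.05 (edgeR's quasi-likelihood test, adjusted over the 12854 genes). Over all tested genes, 50.5% passed this threshold, 25.8% higher and 24.7% lower. The median log2 fold change of the lists was 0.11, against 0.02 over all genes. The lists held some genes whose response was already known, among them SERPINB2 and the HSP90 genes.

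Genes of the cytosolic complex that holds AHR were mostly higher with WFA. Of 5 tested, 3 rose and none fell, and the median log2 fold change was 1.45. HSP90AA1, the inducible HSP90, rose from 3221 ± 465 to 19038 ± 2032 CPM (SD, n = 3), with a log2 fold change of 2.56 (SE 0.14; adjusted p = 2.33e-09 with edgeR). HSP90AB1, its constitutive form, rose by 1.74 and PTGES3, which encodes p23, by 1.45 on the log2 scale. The kinase gene SRC had a log2 fold change of 0.16 and did not pass the test. The value of the receptor gene itself was 0.13.

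Of 7 tested bHLH-PAS relatives of AHR and ARNT, 3 rose and 1 fell, with a median of 0.16. The clock gene ARNTL rose by 0.63 (SE 0.13) and ARNTL2 fell by 0.50 (SE 0.12) on the log2 scale. EPAS1, which encodes the hypoxia factor HIF-2α and pairs with ARNT, rose by 0.47 (SE 0.12). HIF1A rose by 0.24 (SE 0.09; adjusted p = 0.045 with edgeR), a call that was lost under several alternatives. ARNT, at 0.32, thus lay between its partners HIF1A and EPAS1. ARNT2, the close relative of ARNT, had 4 to 12 reads in a library and was not tested.

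Of 14 tested coregulator and turnover genes of AHR, 5 rose and 4 fell, with a median of 0.10. The p160 coactivators NCOA1, NCOA2 and NCOA3 rose by 0.68, 0.78 and 0.62 on the log2 scale. The chromatin remodelling ATPase SMARCA4, the corepressor NRIP1 and the ubiquitin ligase subunit DDB1 fell by 0.40, 0.42 and 0.27.

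On a list of 8 genes of the classical drug metabolism response to AHR ligands, 5 had no read in any library. The 2 tested were the enzyme gene NQO1 and the regulator gene NFE2L2. NQO1, a quinone reductase that NRF2 also induces, went from 51.6, 34.1 and 44.4 CPM in DMSO to 159, 120 and 185 CPM in WFA, a log2 fold change of 1.83 (SE 0.16; adjusted p = 2.20e-07 with edgeR). Its direction was thus opposite to that of CYP1B1 and AHRR. NFE2L2, which encodes NRF2, had a log2 fold change of -0.05 and did not pass. Without the filter on low counts, 3 genes of this list were tested and 2 rose. Of 10 tested genes that AHR ligands induce in some cell types, 5 rose and 3 fell, with a median of 0.37. SERPINB2, a plasminogen activator inhibitor, fell from 55.1 ± 5.05 to 5.05 ± 2.11 CPM (SD, n = 3), a log2 fold change of -3.43 (SE 0.19). This was close in size to CYP1B1. The cytokine gene IL1B fell by 1.31 and NEDD9, a scaffold of cell adhesion signalling, by 0.44. The amino acid transporter gene SLC7A5, the hormone gene STC2 and the P450 gene CYP2S1 rose by 1.67, 2.75 and 0.69. The number that rose was 3 with DESeq2 and without DMSO replicate 2, DMSO replicate 3 or WFA replicate 2.

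Enzymes and carriers that make, move or remove tryptophan-derived AHR ligands moved in both directions. Of 15 tested, 4 rose and 6 fell, with a median of -0.02. SLC7A5 and SLC3A2, the 2 chains of the tryptophan carrier LAT1, rose by 1.67 and 1.33, and HAAO, a dioxygenase of the kynurenine route, by 0.61. AFMID, which makes kynurenine, fell by 1.17 (SE 0.14; adjusted p = 7.60e-06 with edgeR), and QPRT and GOT2 fell by 0.65 and 0.42. IDO1, the inducible first enzyme of the route, had 1 read in DMSO replicate 1 and 0 in the other libraries. Among the relatives of TIPARP and the hydrolases that remove ADP-ribose, 4 of 18 rose and 5 fell, with a median of -0.01. ZC3HAV1, an antiviral relative without enzyme activity, rose by 1.76, TNKS by 0.57 and PARP11 by 0.56, while PARP4, PARP10 and PARP12 fell by 0.74, 0.82 and 0.80. The log2 fold change of TIPARP, -0.17, lay inside this range.

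Of 7 genes for electron donors of P450 enzymes and for enzymes acting on CYP1B1 products, 2 rose and none fell, with a median of 0.24. EPHX1, the microsomal epoxide hydrolase, is on the list as an enzyme acting on CYP1B1 products. Its level rose from 36.8 ± 4.86 to 149 ± 2.31 CPM (SD, n = 3), a log2 fold change of 2.01 (SE 0.10; adjusted p = 9.82e-10 with edgeR). POR, the reductase that supplies P450 enzymes with electrons, rose by 0.91 (SE 0.12). With the replicate block 4 rose and 1 fell. The number that rose was also 4 without WFA replicate 1, and 1 fell with total counts and without DMSO replicate 3.

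The table held 54 P450 genes besides CYP1B1 and CYP1A1, of which 32 had no read in any library. Of 13 tested, 7 rose and 3 fell, where 25.8% of all tested genes were called higher and 24.7% lower. The sterol hydroxylase gene CYP27A1 rose by 2.28, the vitamin D 25-hydroxylase gene CYP2R1 by 1.89 and the oxysterol hydroxylase gene CYP7B1 by 1.41 on the log2 scale. CYP39A1, another oxysterol hydroxylase gene, had 2, 2 and 0 reads in DMSO and 130, 77 and 96 reads in WFA, and passed the test, but at that DMSO level no fold change is given. CYP2J2, an epoxygenase of arachidonic acid, fell by 1.61, CYP27B1, which activates vitamin D, by 1.04 and CYP4V2 by 0.40. CYP1B1 had the lowest log2 fold change of the tested P450 genes.

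**Figure D5:**
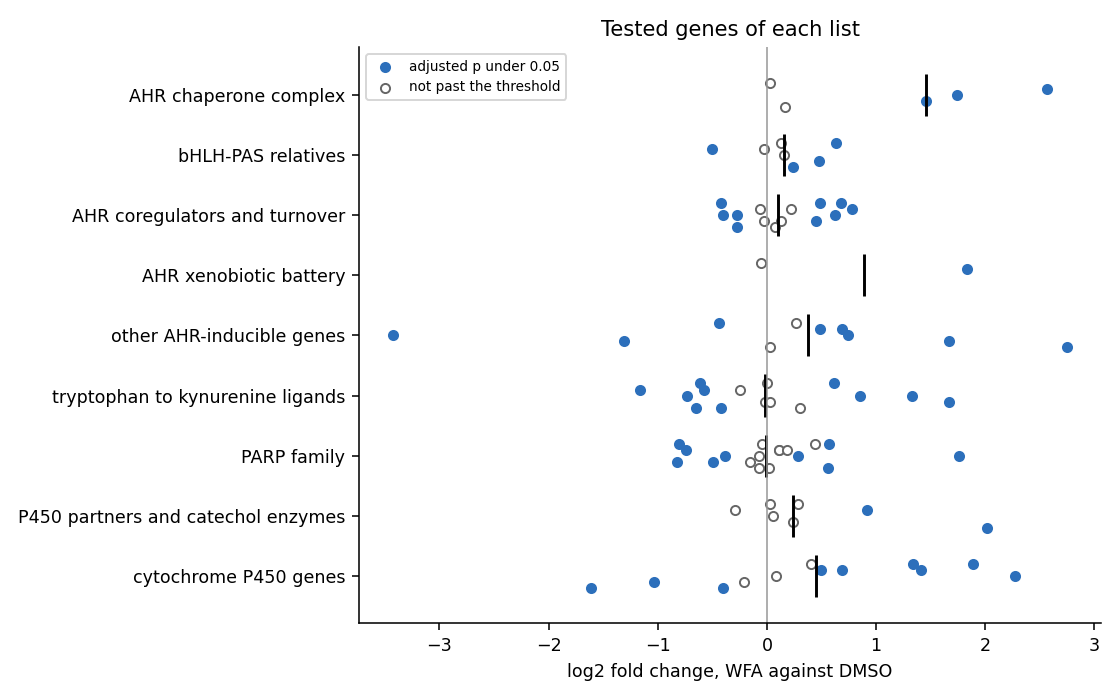
Log2 fold change of WFA against DMSO (horizontal axis) for each tested gene of the 8 pathway lists and of the P450 genes other than CYP1B1, with CYP39A1 left out for its low DMSO counts. Filled points passed an adjusted p of 0.05, open points did not, and black bars are medians. The chaperone complex has the highest median, 1.45, and SERPINB2 lies farthest to the left, at -3.43.

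The libraries held 11006035 to 13872810 reads assigned to genes. The 100 most abundant genes took 17.5 to 19.8% of the reads in DMSO and 23.2 to 23.5% in WFA, and the part of this difference in the values above was not tested. With TMM scaling 3311 genes were called higher and 3178 lower, and with total counts 2763 and 3875. All 10 monocytic markers were above 3 reads, with a summed level of 2793 to 3382 CPM in DMSO and 2522 to 3332 CPM in WFA, most of it from LYZ, at 1823 ± 278 and 1764 ± 358 CPM (SD, n = 3). Of these 10 markers, 5 fell and 1 rose at an adjusted p under 0.05 in the edgeR fit, which 50.5% of all tested genes passed. CD14 fell by 1.22, CD33 by 0.85, PTPRC by 0.48, CSF1R by 0.40 and SPI1 by 0.34 on the log2 scale, and CD68 rose by 0.37. CD14 was low, at 5.72 ± 1.89 and 2.45 ± 0.466 CPM (SD, n = 3). The part of these shifts in the values of the AHR axis was not tested. Of 10 markers of other cell types, 8 were at 3 reads or fewer in all libraries, among them CD3E, MS4A1, EPCAM and CDH5. COL1A1, a collagen gene, was at 0.453 ± 0.333 CPM in DMSO and 9.95 ± 2.27 CPM in WFA (SD, n = 3). The summed level of these markers was 0.914 to 2.17 CPM in DMSO and 10.4 to 13.96 CPM in WFA.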

How the data were processed

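RNA of 6 THP1 libraries was sequenced (TruSeq RNA v2, which does not mark strand). Raw counts per gene were deposited as whole numbers, and per the labels reads were processed with bcl2fastq 2.19, Trimmomatic, Bowtie2, Picard and featureCounts against hg38. Annotation, multiply mapped reads and the strand setting are not given in the sources used here. The deposited table also holds a score per library, the count after scaling and rounding by the authors, and their own comparison (fold changes and p-values). Neither was used.

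Counts were analysed with edgeR 4.0.16 in R 4.3.3, with TMM scaling, filterByExpr (minimum count 10), the quasi-likelihood test and Benjamini-Hochberg adjustment over 12854 genes, with a threshold of 0.05. The quasi-likelihood test returns no standard error. The SE given is the absolute log2 fold change divided by the square root of its F statistic. Log2 CPM for spread and likeness used a prior count of 2. DESeq2 1.42.0, other scalings, no filter, a replicate block and leaving out each library were alternatives. In simulated data for this comparison, with 12854 genes of which 200 were changed, 98% of changes of 1 and 100% of changes of 2 on the log2 scale were recovered. The changed genes were drawn from those with higher counts, and their share was far smaller than the share called in the data. The recovery therefore does not cover genes with low counts. The simulated libraries held no effect of the replicate number, so the recovery does not cover paired libraries either. The share of false calls is not reported here. Same-numbered libraries share a date in their descriptions, and the deviations from group means correlated across genes (r = 0.22, 0.33 and 0.25, against -0.26 to 0.00 for other pairs), so the numbers pair the samples. The main fit, from which the SE, adjusted p and calls above come, did not use this pairing. Only the alternative with the replicate block did.

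The 6 genes and all lists were chosen with earlier results of these data known. On each list, up to 3 genes higher and 3 lower with the smallest p were named, the 4 highest and 4 lowest P450 genes, the 6 genes most like CYP1B1 and the 3 most like AHR and TIPARP. Genes outside this rule (PDCD6, antisense genes, NFE2L2, SRC, ARNT2, IDO1, GPNMB, LYZ, PTPRC, SPI1) were named after their values were seen. Some genes of the lists are not reported here. Promoter windows came from RefSeq (GRCh38.p14), with entries for AHR, ARNT, AHRR, TIPARP and CYP1A1. The form TNGCGTG was added after the sequences were seen.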

Additional observations from a re-analysis of the deposited data

How the results depend on the processing

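The log2 fold changes of the 5 fitted genes of the AHR axis kept their sign under all 12 alternatives, and all but 1 value stayed within the spread between replicates. The exception was ARNT with total counts in place of TMM, at 0.24, where the median of all genes shifted by -0.08. Leaving out single libraries gave -3.49 to -2.70 for CYP1B1, -1.86 to -1.52 for AHRR, 0.30 to 0.36 for ARNT, -0.31 to -0.02 for TIPARP and 0.03 to 0.29 for AHR. With the replicate block the log2 fold change of CYP1B1 was -3.08, the calls were 3877 higher and 3708 lower, and beside the electron donor list, given above, the block moved no count of calls by over 1.5 times. Without single libraries 2942 to 3176 genes were called higher and 2815 to 3016 lower. Of 564 values of 47 named list genes under the alternatives, 538 kept their call, 26 lost it and 0 changed direction. The losses included HIF1A, CYP27B1, NEDD9 and CYP4V2. Depth limits CYP1A1 and the DMSO level of CYP39A1, where a library of this depth held a few reads or none.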
